A study of Mus musculus with 9 samples.

Results

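The genes described here carry the symbols of the mitochondrial respiratory chain and ATP synthase, and nearly all encode subunits of it or assembly factors of complex I. They were taken by symbol: names beginning with Nduf, Uqcr, Atp5 or Cox4 to Cox8, the genes Sdha, Sdhb, Sdhc and Sdhd, the mitochondrially encoded mt-Nd, mt-Co, mt-Atp and mt-Cytb genes, and Cycs and Cyc1, leaving out symbols that contain -ps. The rule found 112 of the 55291 genes in the files. Of these, 99 are encoded in the nucleus and 13 in mitochondrial DNA. The nuclear genes comprise 39 of complex I, 8 Ndufaf genes for complex I assembly factors, 4 of complex II, 9 of complex III (Cyc1 included), 21 of complex IV (Ndufa4 and Ndufa4l2 included), 17 of complex V (ATP synthase) and cytochrome c (Cycs). These counts include 4 genes that GENCODE M21 annotates as processed pseudogenes, Ndufa11b, Ndufb4c and Ndufs6b under complex I and Cox6c2 under complex IV, none with more than 37 reads in a library. The RNA came from AML cells (acute myeloid leukaemia, mouse) with the Trp53(R172H/Δ) genotype, in which the tumour suppressor p53 carries a missense change. The cells came from lungs of wild-type recipient mice, from bone marrow (BM) of wild-type recipient mice and from in vitro culture, with 3 libraries in each group. All 3 groups carry the same Trp53 genotype, so no comparison here is about that allele. The labels do not say whether the libraries of a group come from separate mice or cultures, so the p-values measure the spread between these libraries, which may be technical.

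The respiratory chain sits in the inner mitochondrial membrane. Complexes I and II take electrons from NADH and succinate, complex III passes them to cytochrome c, and complex IV hands them to oxygen. Complexes I, III and IV pump protons, and ATP synthase uses the resulting gradient to make ATP. Most subunits are encoded in the nucleus and imported, whereas a small core is encoded and transcribed inside the organelle, so that each complex except complex II needs both genomes. Leukaemic cells use oxidative phosphorylation as well as glycolysis, and several complex IV subunits have tissue isoforms known from muscle, testis or lung.

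Libraries held 27485111 to 38761363 counted reads, and levels are given as CPM, the count scaled to library size, where 3 reads came to between 0.0746 and 0.111 CPM. Markers of the labelled cell type were mixed. Kit was at 506 to 764 CPM in lung, 565 to 674 CPM in BM and 1130 to 1214 CPM in culture, but 7 of 10 myeloid and progenitor markers, among them Cd34, Flt3 and Mpo, were under 1 CPM in culture, while the erythroid regulator Klf1 was at 261 to 334 CPM over all 9 libraries. The neutrophil markers together were at 10.7 to 78.8 CPM in lung, 320 to 1968 CPM in BM and 1.17 to 2.34 CPM in culture. Lung epithelium markers together were at 14.9 to 83.0 CPM in lung, 0.597 to 0.773 CPM in BM and 0.631 to 1.02 CPM in culture. Endothelium markers together were at 13.6 to 43.2 CPM in lung, 6.41 to 7.50 CPM in BM and 5.75 to 6.74 CPM in culture. The part of these other cells in the member results was not tested, and in bulk samples fewer cells of a type and less RNA per cell cannot be told apart.

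Summed RNA of the nuclear genes of the chain was highest in BM, and the sums of the mitochondrially encoded genes overlapped in all groups. Nuclear subunit genes summed to 18643 ± 698 CPM in lung, 22077 ± 1408 CPM in BM and 16842 ± 442 CPM in culture (mean ± SD, n = 3 each). The 3 groups did not overlap in that sum, which ran from 18159 to 19443 CPM in lung, 20658 to 23473 CPM in BM and 16347 to 17199 CPM in culture. Complex III stood furthest above culture, at 2497 ± 98.2 CPM in lung, 2986 ± 256 CPM in BM and 1861 ± 39.9 CPM in culture. Complex V summed to 7837 ± 353, 8823 ± 439 and 6989 ± 176 CPM in lung, BM and culture, again without overlap. Complex I was at 4543 ± 196 CPM in lung, 5637 ± 480 CPM in BM and 4278 ± 160 CPM in culture, and lung and culture overlapped. Complex IV gave 2268 ± 118 CPM in lung, 2914 ± 293 CPM in BM and 2272 ± 151 CPM in culture, so that lung and culture were at the same level. Complex II was at 1447 ± 56.8 CPM in lung, 1667 ± 70.1 CPM in BM and 1416 ± 39.0 CPM in culture. The mitochondrially encoded genes summed to 1787 ± 172 CPM in lung, 1831 ± 274 CPM in BM and 1773 ± 80.1 CPM in culture, with all groups overlapping. Several of these genes were hardly counted, as given below, so this sum does not cover all of them. No test was made on these sums.

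**Figure D1:**
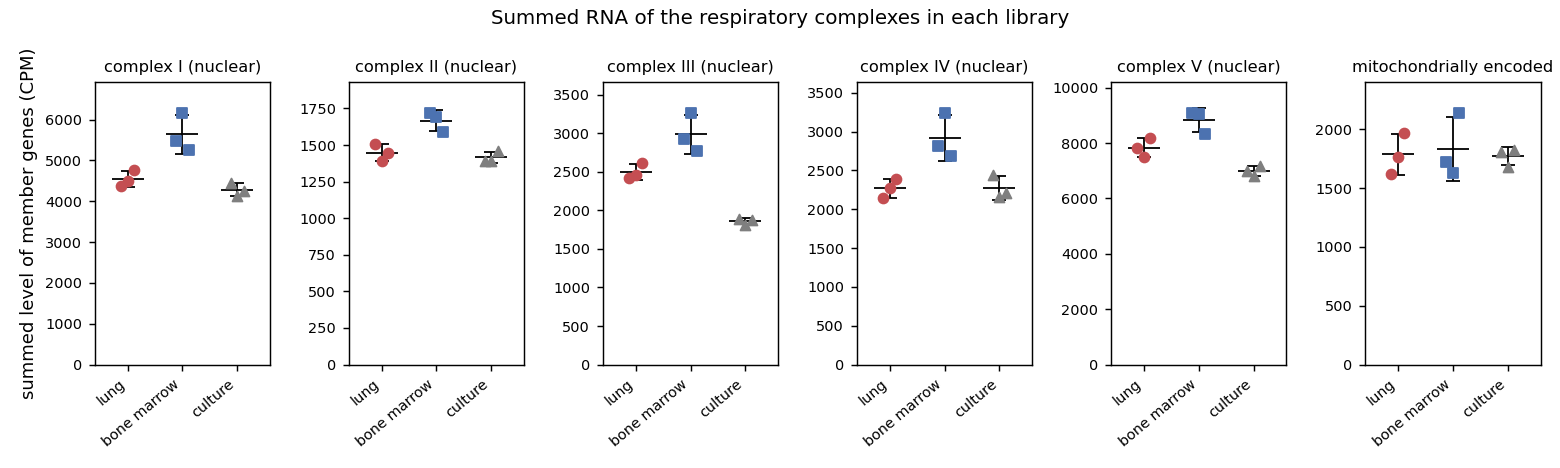
Summed level in CPM (y axis, from 0) of the member genes of each complex and of the mitochondrially encoded genes, with 1 point per library in lung, bone marrow and culture and bars for the mean ± SD (n = 3). Bone marrow is highest for all 5 nuclear complexes, and the mitochondrially encoded sums, in which several genes were hardly counted, overlap in all groups.

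Of the 112 members, 102 had enough reads to be tested for change. The other 10 were Cox4i2, Cox7b2, Cox8b, Cox8c, Ndufa11b, mt-Atp6, mt-Atp8, mt-Co2, mt-Co3 and mt-Nd4l, none of which had more than 9 reads in a library. The quasi-likelihood test of edgeR was run on 15066 genes, and a gene is said to have passed, risen or fallen where its p, adjusted over all of them by the Benjamini-Hochberg method, was under 0.05. All adjusted p-values below are from that test.

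In lung against BM, 53 members passed as lower in lung, each by less than 2-fold, 1 passed as higher and 48 did not pass. These are counts of the 102 tested members, where 11.1% of all tested genes fell, 14.2% rose and 25.3% passed in all. The libraries of lung lay wholly below those of BM for 63 members and wholly above for 1 (18.1% and 18.5% of all tested genes). The median log2 change was -0.35 over the 94 tested nuclear members and -0.01 over all tested genes. The member that rose was Cox6a2. The largest share that fell was in complex V, 13 of 17 members, followed by complex III with 6 of 9, complex I with 22 of 38, complex II with 2 of 4, complex IV with 8 of 17 and the Ndufaf assembly factors with 2 of 8. None of the 8 tested mitochondrially encoded genes passed, and whether the classes differ was not tested. The count of members that fell was 36 without lung replicate 1 and 37 without BM replicate 2, and for changes of more than 1.5-fold 0 members fell and 1 rose.

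The largest falls in lung were in a supercomplex factor, ATP synthase and complex IV. Cox7a2l, which helps join complexes III and IV into supercomplexes, was at 36.1, 33.0 and 38.1 CPM in lung and 54.7, 62.0 and 50.7 CPM in BM, a log2 change of -0.64 ± 0.10 (SE; adjusted p = 0.000743). Atp5e, the epsilon subunit of the ATP synthase stalk, was at 76.0, 86.5 and 100.3 CPM in lung and 115, 154 and 126 CPM in BM (log2 change -0.59 ± 0.12, adjusted p = 0.00468). The groups were separate for both genes. Cox7b, a small membrane subunit of complex IV, changed by -0.58 ± 0.10 on the log2 scale (adjusted p = 0.00185). Ndufa4, once assigned to complex I and now known as a complex IV subunit, was at 143, 149 and 159 CPM in lung and 204, 248 and 212 CPM in BM (-0.55 ± 0.09, adjusted p = 0.000772). Among the members with most reads in each complex, Ndufc2, an accessory subunit of the complex I membrane arm, changed by -0.45 ± 0.10 (adjusted p = 0.0052) and Cox4i1, the common form of complex IV subunit 4, by -0.41 ± 0.10 (adjusted p = 0.00743). The others did not pass. Sdha, the flavoprotein that oxidises succinate, was at 611, 561 and 581 CPM in lung and 654, 523 and 509 CPM in BM (adjusted p = 0.698). Atp5b, the catalytic beta subunit, was at 3819, 3430 and 3831 CPM in lung and 4038, 3661 and 3487 CPM in BM (adjusted p = 0.921). Uqcrc1, a core subunit of complex III, changed by -0.16 ± 0.08 (adjusted p = 0.15).

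Nuclear members have short transcripts, and in this comparison change followed transcript length across the genome. Their median length was 730 bases against 2389 bases for all tested genes (median coding transcript of each gene in GENCODE M21), and 64 of the 97 members with a length had at most 1000 bases. Over 14659 tested genes that are not members the log2 change of lung against BM correlated with length at a Spearman rho of 0.376, given as a description, since genes of a library share its RNA and its depth. Among those other genes the median log2 change was -0.45 up to 500 bases, -0.29 from 500 to 1000 bases, -0.16 from 1000 to 1500 bases and 0.20 above 4000 bases. Members in the first 3 of these ranges had medians of -0.47 (16 genes), -0.36 (43 genes) and -0.40 (15 genes). From 500 to 1000 bases 67.4% of members fell, against 22.9% of the other genes. Other genes of at most 1000 bases took 7.10% to 7.87% of the reads in lung libraries, 8.52% to 9.78% in BM libraries and 6.68% to 7.24% in culture libraries. When the relation to length was removed from each library, a step added after the data were seen, 18 members passed, 2 higher and 16 lower in lung, and the median of nuclear members was -0.09. Of the 16, 15 had also fallen without that step and Ndufb2 had not passed. The 15 include Atp5md (-0.46, adjusted p = 0.0161) and Atp5pb (-0.31, adjusted p = 0.0125). Neither has a transcript length in GENCODE M21, so the step left both uncorrected and their calls do not show a fall beyond length. Cox7a2l, Cox7b, Sdhd, Ndufb8 and Atp5g1 were among the 15, with log2 changes of -0.46, -0.37, -0.33, -0.34 and -0.39. Atp5e (-0.18, adjusted p = 0.142), Ndufa4 (-0.16, adjusted p = 0.0765), Ndufc2 (-0.11, adjusted p = 0.335) and Cox4i1 (-0.13, adjusted p = 0.195) no longer passed.

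**Figure D2:**
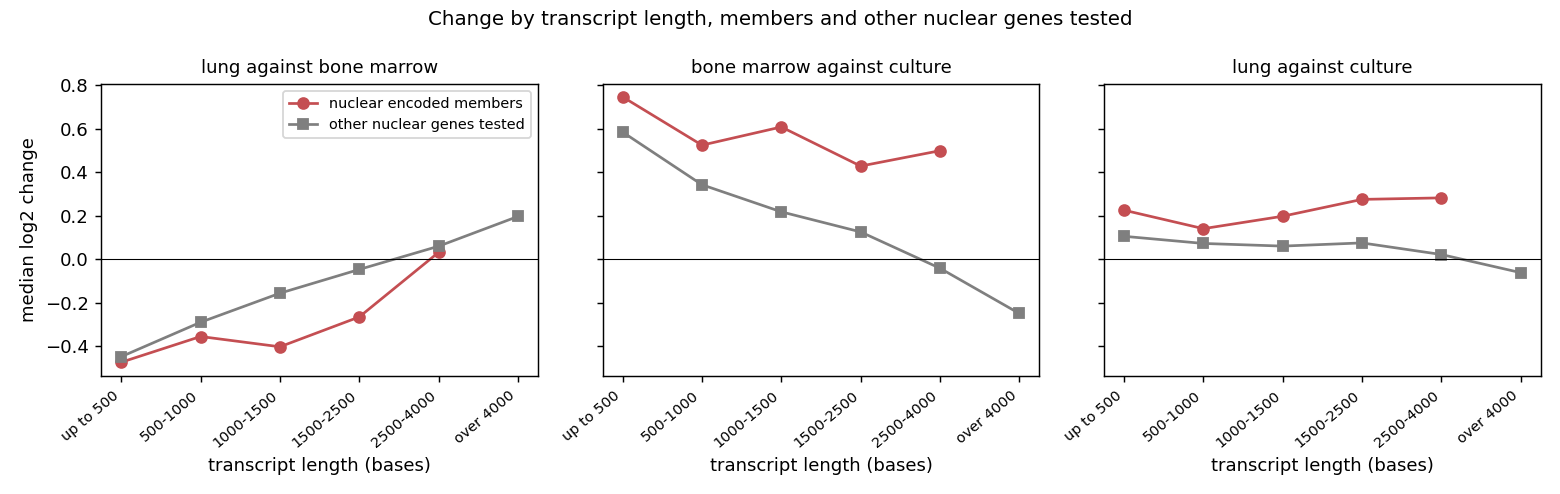
Median log2 change (y axis) of nuclear encoded members and of other nuclear genes tested, by transcript length in bases (x axis), in each comparison. In lung against bone marrow the other genes run from -0.45 up to 500 bases to 0.20 above 4000 bases and the members lie at or below them, and in bone marrow against culture the members lie above the other genes in every range they fill.

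In BM against culture, most respiratory chain genes rose and 6 fell, 3 of them by more than 2-fold. Of 102 members 68 rose and 6 fell, beside 30.7% and 29.8% of all tested genes (60.5% passed in all). Without the annotated pseudogenes Ndufs6b and Cox6c2 66 rose. BM libraries lay wholly above culture for 70 members and wholly below for 8, against 34.3% and 32.9% of all tested genes. The median log2 change was 0.56 over nuclear members and 0.05 over all tested genes. The members that rose numbered 27 of 38 in complex I, 6 of 8 Ndufaf genes, 2 of 4 in complex II, 8 of 9 in complex III, 10 of 17 in complex IV and 14 of 17 in complex V, and Cycs rose too. Of the 8 tested mitochondrially encoded genes 0 passed. For changes of more than 1.5-fold 26 members rose and 3 fell. With the relation to length removed (rho -0.234 over the other genes) 53 rose and 18 fell, and the median was 0.28. The 53 include Atp5md, which has no transcript length and was left uncorrected.

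Atp5e, at the CPM given above in BM and 51.5, 45.9 and 43.0 CPM in culture, had the largest rise among members at 10 CPM or more, a log2 change of 1.5 ± 0.13 (adjusted p = 4.88e-07). Ndufaf4, a factor needed to assemble complex I, was at 49.5, 71.7 and 79.1 CPM in BM and 27.0, 27.1 and 26.6 CPM in culture (1.31 ± 0.17, adjusted p = 2.81e-05). Both genes were higher in every BM library than in every culture library. Atp5l, subunit g of the membrane part of ATP synthase, was at 17.1, 20.4 and 17.1 CPM in BM and 8.57, 8.19 and 7.35 CPM in culture (1.18 ± 0.14, adjusted p = 8.44e-06), with 84.8% of its 50-base windows also present in another annotated gene, so its count is uncertain. Ndufa11, an accessory subunit of the complex I membrane arm, changed by 1.04 ± 0.12 (adjusted p = 4.97e-06). It shares 70 exon bases with Vmac on the opposite strand, and the counts are unstranded, so their reads cannot be told apart. Among the members with most reads, Uqcrc1 rose by 0.67 ± 0.08, Cox4i1 by 0.56 ± 0.10 and Ndufc2 by 0.51 ± 0.10 on the log2 scale. Atp5b changed by 0.24 ± 0.08 (adjusted p = 0.0217), a call lost without culture replicate 1 (adjusted p = 0.129), without culture replicate 2 (0.116) and with the length relation removed (0.0743). Sdha was not called (-0.18 ± 0.09, adjusted p = 0.117), though without BM replicate 1 it was called lower (-0.30, adjusted p = 0.00255).

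In lung against culture, members rose more often than they fell, and the largest share that rose was in complex III and among the Ndufaf genes. Of 102 members 42 rose and 12 fell, beside 27.9% and 27.0% of all tested genes (54.9% passed in all), and 41 rose without the annotated pseudogene Ndufs6b. Lung libraries lay wholly above culture for 49 members and wholly below for 18 (34.0% and 32.9% of all tested genes). The median over nuclear members was 0.19, against 0.02 over all tested genes. Members that rose numbered 13 of 38 in complex I, 6 of 8 Ndufaf genes, 2 of 4 in complex II, 7 of 9 in complex III, 3 of 17 in complex IV and 10 of 17 in complex V, beside Cycs, and 0 of 8 mitochondrially encoded genes passed. Without culture replicate 2 the members that rose numbered 26. For changes of more than 1.5-fold 4 rose and 4 fell, and with the length relation removed 41 rose and 16 fell, where the other genes showed a rho of -0.052 with length. Both comparisons against culture use the same culture libraries, and lung against BM shares its libraries with each of them.

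**Figure D3:**
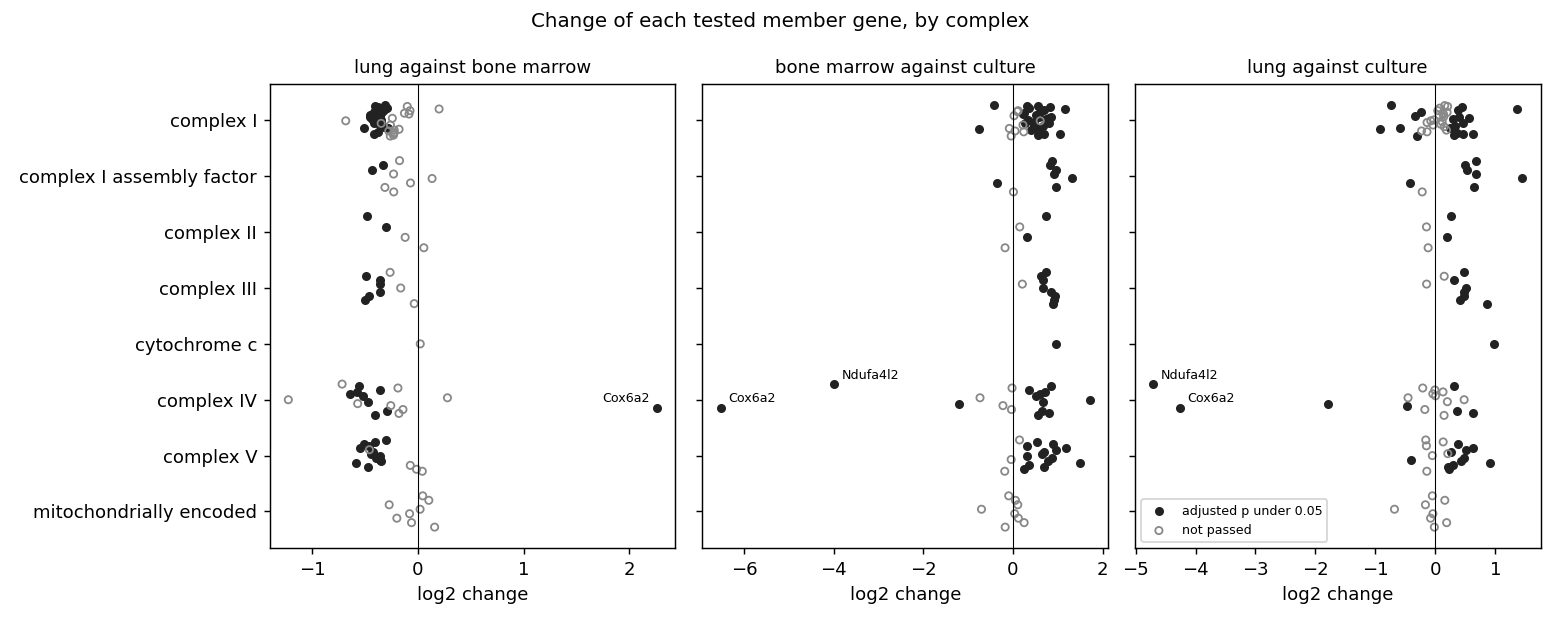
Log2 change (x axis) of each of the 102 tested members in the 3 comparisons, by class (y axis); filled points passed the test and open points did not. Most nuclear members lie left of 0 in lung against bone marrow and right of 0 in bone marrow against culture, Cox6a2 and Ndufa4l2 lie far to the left in both comparisons with culture, and the mitochondrially encoded genes are all open points.

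Ndufaf4 and both cytochrome genes rose in both tissues against culture and were not called between the tissues. Ndufaf4 was at 59.7, 76.9 and 83.3 CPM in lung, and its log2 change against culture was 1.45 ± 0.17 (adjusted p = 1.68e-05). Cycs, which encodes the mobile electron carrier that also triggers apoptosis when it leaves mitochondria, was at 48.5, 48.6 and 54.8 CPM in lung, 50.4, 47.0 and 52.2 CPM in BM and 27.5, 24.6 and 25.2 CPM in culture. Its log2 change was 0.98 ± 0.09 in lung against culture (adjusted p = 1.76e-06), 0.95 ± 0.09 in BM against culture (1.56e-06) and 0.02 ± 0.09 in lung against BM (0.885). Cyc1, the complex III subunit that hands electrons to cytochrome c, was at 468, 428 and 504 CPM in lung, 504, 471 and 461 CPM in BM and 259, 255 and 258 CPM in culture. It changed by 0.86 ± 0.08 in lung against culture (adjusted p = 1.1e-06), 0.89 ± 0.08 in BM against culture (5.26e-07) and -0.04 ± 0.08 in lung against BM (0.77). For all 3 genes both tissues lay above culture in every library and the tissues overlapped. Of the 50-base windows of Cycs 28.5% were also present in another annotated gene, so part of its reads may be lost or split. The share was 0.0% for Cyc1 and Ndufaf4. Cycs and Ndufaf4 have long transcripts (3123 and 3632 bases), and with the length relation removed they rose in lung against culture by 1.02 and 1.51 and in BM against culture by 1.07 and 1.49. Atp5e also rose in lung against culture, by 0.90 ± 0.13 (adjusted p = 5e-05).

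Sorted by their 3 calls, 23 members were higher in both tissues than in culture and lower in lung than in BM, among them Atp5e, Atp5g1, Atp5g3, Ndufa4, Ndufb8, Sdhd and Uqcrb. A further 21, including Cox4i1, Cox7a2, Cox7a2l, Cox7b and Ndufc2, were higher in BM than in culture and lower in lung than in BM, and were not called in lung against culture. Another 19, including Cycs, Cyc1, Ndufaf4, Cox5a, Uqcrc1 and Atp5b, were higher in both tissues and not called between them. Only 18 of the tested members were called in no comparison, of which 8 are mitochondrially encoded. The remainder fell into small classes. These classes, and the members lower in both tissues named below, were not counted over all tested genes. Their sizes therefore do not show that members differ from other genes. A call against culture in a single tissue does not show that the tissues differ unless lung against BM itself passed.

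Against that direction, 6 members were lower in both tissues than in culture: Cox6a2, Ndufa4l2, Cox6b2, Ndufa6, Ndufv3 and Ndufaf3. Ndufa6, an accessory complex I subunit that binds the mitochondrial acyl carrier protein, was at 64.2, 71.1 and 77.2 CPM in lung, 79.6, 79.1 and 81.8 CPM in BM and 151, 129 and 124 CPM in culture. It fell in lung against culture by 0.93 on the log2 scale (SE 0.09, adjusted p = 2.71e-06) and in BM against culture by 0.75 (SE 0.09, adjusted p = 1.33e-05). Ndufv3, a small subunit of the NADH-oxidising module chosen here after its values were seen, was at 81.9, 88.5 and 89.9 CPM in lung, 112, 119 and 93.0 CPM in BM and 154, 141 and 138 CPM in culture, and it passed in all 3 comparisons. Its call in lung against BM was lost with the length relation removed (-0.003, adjusted p = 0.981). Ndufv3 stayed lower in lung and in BM than in culture under that step (-0.78 and -0.77). In BM against culture 26 other complex I genes, leaving out the annotated pseudogene Ndufs6b, rose in the libraries where Ndufa6 and Ndufv3 fell. Ndufaf3 shares 48 exon bases with Impdh2 on the opposite strand, so its counts may hold reads of that gene.

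Isoform genes of complex IV held the largest changes of all members against culture. Cox6a2, the heart and skeletal muscle form of complex IV subunit 6A (chr7:128205435-128206387, minus strand, GRCm38), was at 0.786, 0.391 and 0.474 CPM in lung, 0.119, 0.124 and 0.0994 CPM in BM and 11.2, 10.6 and 10.3 CPM in culture. The 3 groups were far apart, with lung between the others. It had 30, 12 and 15 reads in lung, 4 in each BM library and 302, 345 and 291 in culture. Its log2 change was -4.25 ± 0.25 in lung against culture (adjusted p = 2.41e-08), -6.52 ± 0.31 in BM against culture (2.02e-09) and 2.26 ± 0.36 in lung against BM (0.00084), the last resting on the few reads given. Its common counterpart Cox6a1 was at 313, 342 and 354 CPM in lung, 386, 403 and 325 CPM in BM and 412, 365 and 363 CPM in culture and passed in none, though with the length relation removed it was lower in lung (-0.20, adjusted p = 0.0306) and in BM (-0.40, adjusted p = 0.000433) than in culture. Per transcript length, Cox6a2 made up 0.14% ± 0.062 of the pair in lung, 0.0258% ± 0.00011 in BM and 2.32% ± 0.078 in culture (SD, n = 3). Most other muscle genes were hardly counted: 11 of 12 striated and cardiac muscle markers were under 1 CPM in every group. The exception, Tnni3, was at 130 ± 29.3 CPM in lung, 124 ± 14.6 CPM in BM and 56.8 ± 2.83 CPM in culture. Unlike Cox6a2, Tnni3 was called higher in both tissues than in culture (log2 change 1.19 in lung and 1.13 in BM). Of the 12 markers, 4 had no read in lung, 8 none in BM and 6 none in culture. Actc1 had 49, 14 and 0 reads and Myh6 15, 1 and 0 in lung replicates 1, 2 and 3. Neither had a read in BM. Cox6a2 was itself under 1 CPM in both tissues, so the 1 CPM cut does not show that muscle RNA was absent there. The part of muscle RNA in its lung value was not tested. Cox6a2 shares 70 exon bases with Itgad on the opposite strand.

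Ndufa4l2, a paralogue of Ndufa4 known as a target of the hypoxia factor HIF-1 (chr10:127514967-127517154, plus strand), was at 0.655, 1.83 and 1.23 CPM in lung, 1.25, 2.17 and 2.56 CPM in BM and 32.3, 29.8 and 33.3 CPM in culture. Both tissues lay far below culture and overlapped each other. The log2 change was -4.70 ± 0.31 in lung against culture (adjusted p = 3.56e-07), -3.98 ± 0.30 in BM against culture (5.49e-07) and -0.72 ± 0.33 in lung against BM (0.13). Ndufa4 itself rose in both tissues against culture, by 0.30 ± 0.09 in lung (adjusted p = 0.0092, and 0.0675 without culture replicate 2) and 0.86 ± 0.09 in BM (1.94e-06). Per length, Ndufa4l2 made up 0.40% ± 0.19 of the pair in lung, 0.44% ± 0.15 in BM and 11.4% ± 0.54 in culture. It shares 32 exon bases with Shmt2 on the opposite strand.

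Cox6b2, the testis form of subunit 6B (chr7:4751792-4753094, minus strand), was at 9.32, 10.3 and 7.59 CPM in lung, 14.2, 17.1 and 9.35 CPM in BM and 37.8, 29.6 and 26.3 CPM in culture. Its log2 change was -1.78 ± 0.21 in lung against culture (adjusted p = 2.4e-05) and -1.21 ± 0.21 in BM against culture (0.000331). Lung against BM missed the threshold (-0.57 ± 0.21, adjusted p = 0.0688). Cox6b2 was called lower in lung with the replicate block (-0.55, adjusted p = 0.00955), by DESeq2 (adjusted p = 0.036) and with a stricter filter (0.0498). It was also called lower with no filter (0.00114) and without BM replicate 3 (-0.80, adjusted p = 0.00487). It was not called with the length relation removed (-0.15, adjusted p = 0.621). The common form Cox6b1 was at 120, 149 and 137 CPM in lung, 157, 183 and 146 CPM in BM and 208, 174 and 186 CPM in culture, and passed only in lung against culture (-0.48 ± 0.11, adjusted p = 0.00165). With the length relation removed it was also lower in BM than in culture (-0.61, adjusted p = 1.64e-05). Per length, Cox6b2 was 7.0% ± 1.1 of the pair in lung, 8.43% ± 1.5 in BM and 15.5% ± 1.7 in culture.

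Of the remaining isoforms, most were hardly counted. Cox7a1, the muscle form of subunit 7A, was at 0.681 to 1.01 CPM in lung, 0.597 to 0.712 CPM in BM and 0.769 to 1.52 CPM in culture and passed in no comparison, while the common form Cox7a2 was at 235 ± 9.9 CPM in lung, 337 ± 41.5 CPM in BM and 234 ± 20.7 CPM in culture. Cox4i2, the subunit 4 form known from lung and from low oxygen, had 8 reads in the lung libraries together, 1 in BM and 1 in culture, against 361 ± 18.9, 480 ± 67.9 and 327 ± 13.2 CPM of Cox4i1. Cox8b, another muscle form, had 2 reads and Cox8c 1 read in all 9 libraries, and the common Cox8a was at 220 to 259 CPM in lung, 243 to 296 CPM in BM and 256 to 292 CPM in culture. The 3 genes Atp5g1, Atp5g2 and Atp5g3 encode the same c subunit of the ATP synthase rotor. Atp5g1 rose in lung and in BM against culture by 0.43 ± 0.08 and 0.78 ± 0.08, and Atp5g3 by 0.48 ± 0.08 and 0.87 ± 0.08, on the log2 scale. Atp5g2 was at 28.1, 29.0 and 28.6 CPM in lung, 37.3, 40.5 and 32.0 CPM in BM and 41.1, 35.7 and 36.1 CPM in culture and fell in lung against culture (-0.40 ± 0.11, adjusted p = 0.00592). Its share of the 3 per length was 6.22% ± 0.30 in lung, 6.08% ± 0.29 in BM and 10.8% ± 0.54 in culture. With the length relation removed Atp5g2, Cox8a and Cox7a1 passed as lower in BM than in culture (-0.40, -0.39 and -1.12), and Cox8a also in lung (-0.24). Atp5g2 shares 87.4% of its windows with another annotated gene, so its level is uncertain.

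**Figure D4:**
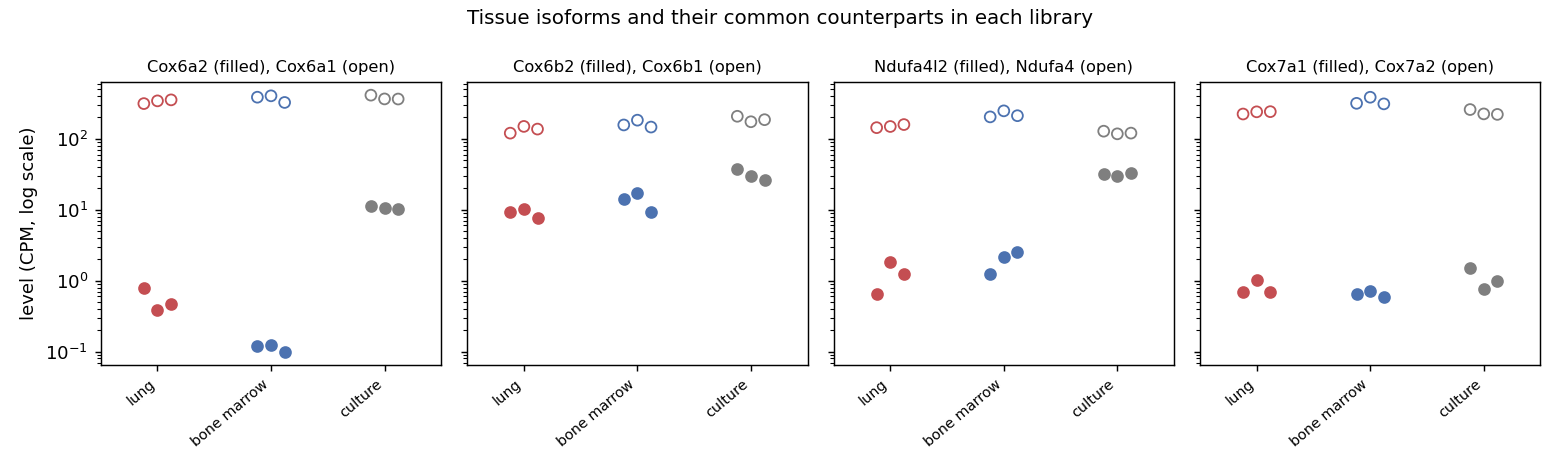
Level in CPM (log y axis) of Cox6a2, Cox6b2, Ndufa4l2 and Cox7a1 (filled) and of their common counterparts (open), with 1 point per library in lung, bone marrow and culture. Cox6a2 and Ndufa4l2 sit near or above 10 CPM in culture and near or below 2.56 CPM in both tissues, while of the counterparts Ndufa4 and Cox7a2 are higher in bone marrow than in lung and in culture.

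The 8 tested mitochondrially encoded genes passed in no comparison, and the groups overlapped for most of them. Among these 8, mt-Nd3 is not read as expression and the levels of mt-Nd4 and mt-Co1 are uncertain, for reasons given below. mt-Co1, the catalytic subunit of complex IV, was at 490, 558 and 614 CPM in lung, 466, 431 and 592 CPM in BM and 538, 555 and 589 CPM in culture. mt-Cytb, the cytochrome b of complex III, was at 355, 409 and 446 CPM in lung, 383, 354 and 525 CPM in BM and 365, 340 and 357 CPM in culture. For both the 3 groups overlapped. mt-Nd1, a membrane arm subunit of complex I, was at 480, 465 and 507 CPM in lung, 536, 510 and 622 CPM in BM and 535, 472 and 527 CPM in culture, and lung lay below BM without passing (-0.20 ± 0.09, adjusted p = 0.112). The other complex I genes mt-Nd2, mt-Nd4, mt-Nd5 and mt-Nd6 had log2 changes between -0.27 and 0.16 in the 3 comparisons, none called. Single libraries decided some of these. mt-Nd4 was called lower in lung than in BM without lung replicate 3 (-0.41, adjusted p = 0.0327), and mt-Nd3 was called lower in BM than in culture without BM replicate 3 (-0.93, adjusted p = 0.0333) and lower in lung than in culture without BM replicate 2 (-0.68, adjusted p = 0.0437). Likewise mt-Co1 was called lower in BM than in culture without BM replicate 3 (-0.32, adjusted p = 0.0164) and mt-Cytb was called higher in that comparison without BM replicate 2 (0.36, adjusted p = 0.032). BM replicate 3 had the highest value of the 3 for mt-Co1, mt-Cytb and mt-Nd1.

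Reads of nuclear members, the Ndufaf genes left out, per mitochondrially encoded read were 11.3, 10.3 and 9.88 in lung, 12.8, 14.4 and 9.64 in BM and 9.51, 9.73 and 9.29 in culture. The mitochondrially encoded reads hold few or none of mt-Co2, mt-Co3, mt-Atp6, mt-Atp8, mt-Nd4l and mt-Nd3. The ratio therefore describes these counts and does not measure the balance of the genomes. Lung lay above culture in every library, and BM replicate 3 fell among the culture values. With the length relation removed, mt-Nd6 passed as higher in lung than in BM (0.39, adjusted p = 0.0456), and mt-Co1, mt-Nd3 and mt-Nd6 passed as lower in BM than in culture (-0.32, -1.10 and -0.47). The change of mt-Nd3 is not read as expression, and that of mt-Co1 is uncertain.

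Not every mitochondrially encoded gene was measured by these counts. mt-Co2, mt-Co3, mt-Atp6 and mt-Nd4l had 0 to 5 reads in any library, mt-Nd4l none at all, and mt-Nd3 had 19 to 52, whereas mt-Co1 had 13917 to 23835 and mt-Cytb 9842 to 21125. The 5 scarce genes are also those with a near-identical annotated nuclear copy. On the minus strand of chromosome 1, GENCODE M21 lists unprocessed pseudogenes that match mt-Co2 over 681 of 681 aligned bases (Gm28661), mt-Co3 over 783 of 783 (Gm28437), mt-Atp6 over 678 of 678 (Gm10925), mt-Nd4l over 294 of 294 (Gm10222) and mt-Nd3 over 344 of 345 (Gm28438). The copies themselves had at most 10 reads in a library. To show how alike they are, the starts of mt-Nd3 (chrM:9459-9518, plus strand) and of its copy (chr1:24613060-24613119, minus strand) are printed 5′ to 3′ from GENCODE M21 transcripts (GRCm38), with the mismatched base in capitals.
mt-Nd3: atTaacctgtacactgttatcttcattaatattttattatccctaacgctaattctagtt
Gm28438: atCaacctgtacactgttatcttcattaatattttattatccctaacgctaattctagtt

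Of the 50-base windows of each transcript, read on both strands, 98.0% to 100% were also present in an annotated nuclear transcript for these 5 genes. The share was 62.2% for mt-Nd4 and 51.1% for mt-Co1, and 8.2% or less for mt-Nd1, mt-Nd2, mt-Nd5, mt-Nd6 and mt-Cytb. mt-Atp8 was the exception, with 0 or 1 read in a library and 0.0% of its windows in an annotated nuclear transcript. In mitochondrial DNA it lies between mt-Co2 and mt-Atp6 and overlaps the latter by 43 bases. The copies of both neighbours lie in the same order on chromosome 1, at 24614885-24615565 and 24613974-24614651. Only annotated transcripts were searched, so a copy of mt-Atp8 between them was not looked for. Levels of mt-Co2, mt-Co3, mt-Atp6, mt-Atp8, mt-Nd4l and mt-Nd3 are therefore not read as expression here, and those of mt-Nd4 and mt-Co1 are uncertain. mt-Nd6 overlaps mt-Nd5 by 14 bases on the opposite strand.

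**Figure D5:**
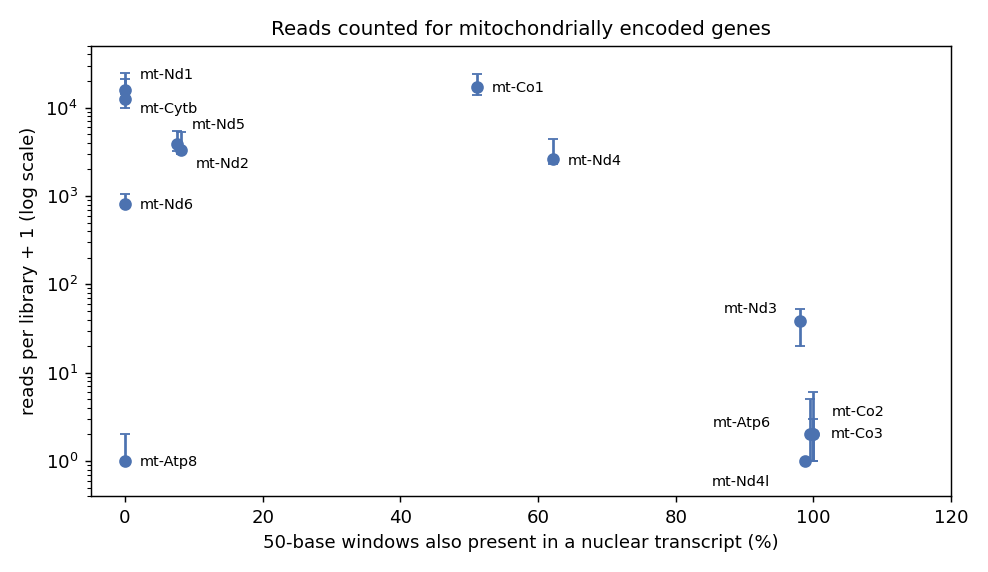
Reads per library plus 1 (log y axis; point at the median, bar from the lowest to the highest of the 9 libraries) of the 13 mitochondrially encoded genes, against the percentage of their 50-base windows also present in an annotated nuclear transcript (x axis). The 5 genes at 98.0% or more have at most 52 reads, while genes at 0.0% to 62.2% have 748 or more, mt-Atp8 excepted.

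Of 42 tested assembly factors outside the Ndufaf group, 12 fell and 0 rose in lung against BM, 26 rose and 0 fell in BM against culture, and 14 rose and 6 fell in lung against culture (medians -0.24, 0.32 and 0.14). The 28.6% that fell in lung against BM and the 61.9% that rose in BM against culture stand beside 11.1% and 30.7% of all tested genes, and the 33.3% that rose in lung against culture is near the 27.9% of all. Ecsit, a complex I assembly factor that also takes part in Toll-like receptor signalling, was at 60.5 ± 9.82 CPM in lung, 60.5 ± 2.06 CPM in BM and 21.6 ± 0.944 CPM in culture, a log2 change of 1.48 ± 0.11 in lung and 1.49 ± 0.11 in BM against culture. Coa7, needed for complex IV, rose by 1.40 ± 0.12 in lung and 1.22 ± 0.12 in BM against culture. Cox17, the copper chaperone of complex IV, was lower in lung than in BM by a log2 change of -0.65 ± 0.11 (adjusted p = 0.00122), and Sdhaf4, an assembly factor of complex II, by -0.61 ± 0.12 (0.00328). Coa4 and Sdhaf4 were lower in lung than in culture (-0.88 ± 0.21 and -0.48 ± 0.12).

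Among 25 tested genes for the expression of mitochondrial DNA and their regulators, 3 rose and 5 fell in lung against BM, 17 rose and 1 fell in BM against culture and 16 rose and 1 fell in lung against culture. The medians were -0.10, 0.37 and 0.37. In lung against BM 12% rose and 20% fell, beside 14.2% and 11.1% of all tested genes, while 68% rose in BM against culture and 64% in lung against culture, beside 30.7% and 27.9%. Pprc1, a coactivator of the PGC-1 family, was at 473 ± 22.5 CPM in lung, 355 ± 21.0 CPM in BM and 332 ± 8.13 CPM in culture (lung against BM 0.41 ± 0.07, adjusted p = 0.00189). Polrmt, the mitochondrial RNA polymerase, was also higher in lung than in BM (0.31 ± 0.09, adjusted p = 0.0235), whereas the elongation factor Tefm (-0.60 ± 0.15) and Slirp, which stabilises mitochondrial mRNA (-0.51 ± 0.15), were lower. Slirp and the polymerase subunit Polg2 rose in BM against culture by 0.97 ± 0.16 and 0.91 ± 0.14. Elac2, which processes mitochondrial tRNA, and the helicase Twnk rose in lung against culture by 0.86 ± 0.07 and 0.58 ± 0.09. Gabpa and Gabpb1, the subunits of the ETS-family factor that binds many respiratory gene promoters, went the other way: Gabpa was lower in BM than in culture (-0.27 ± 0.11, adjusted p = 0.0478) and Gabpb1 lower in lung than in culture (-0.34 ± 0.11, adjusted p = 0.0195). Exons of Gabpa and of the ATP synthase gene Atp5j share 397 bases on opposite strands. Nrf1 was at 97.0 ± 6.74, 88.7 ± 3.75 and 89.2 ± 3.97 CPM in lung, BM and culture, none of its 3 comparisons called.

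Of 14 genes of the tricarboxylic acid cycle, 1 rose and 4 fell in lung against BM, 6 rose and 2 fell in BM against culture, and 3 rose and 0 fell in lung against culture. In lung against BM 7.14% rose and 28.6% fell, beside 14.2% and 11.1% of all tested genes, in BM against culture 42.9% rose, beside 30.7%, and in lung against culture 21.4% rose, below the 27.9% of all. Idh3a, the catalytic subunit of NAD-dependent isocitrate dehydrogenase, was at 608 ± 39.3 CPM in lung, 781 ± 42.9 CPM in BM and 380 ± 16.1 CPM in culture, with log2 changes of 0.68 ± 0.08 in lung and 1.04 ± 0.08 in BM against culture. Fumarase (Fh1) rose by 0.61 ± 0.12 in BM against culture. Ogdh, of the 2-oxoglutarate dehydrogenase complex, was higher in lung than in BM (0.40 ± 0.08) and than in culture (0.49 ± 0.08). Citrate synthase (Cs) was lower in BM than in culture, with a log2 change of -0.30 ± 0.10.

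Promoters were looked at because so many members moved together. Of the 99 nuclear members 77 had an entry in RefSeq's promoter sequences (GRCm38.p6), and the 250 bases before the start were searched on both strands. GCATGCG, part of the NRF1 motif, was present in 11 members, 14.3%, against 3.4% of 27025 genes with an entry. CCGGAAG, an ETS core that GABP can bind, was in 14, 18.2%, against 7.8%, and ATGGCGG, part of the YY1 motif, in 5, 6.5%, against 2.6%. The short hypoxia cores ACGTG and GCGTG were in 20.8% and 44.2% of members and in 18.5% and 30.9% of all genes. These letters are a description and not a site. In BM against culture 8 of 11 tested members with the NRF1 part rose and 1 fell, and 48 of 64 without it rose and 3 fell. Both sets had negative medians in lung against BM, -0.29 with the letters and -0.35 without. The members that rose most in both tissues or in BM are shown beside Cox6b2, which fell, with matches in capitals: the ETS core for Atp5e, on the minus strand, and the NRF1 part for Ndufaf4 and Cycs, where it reads on both strands and the 2 matches overlap. Cox6b2 holds none of the 3 longer motifs. The windows are chr2:174464102-174464351 (minus strand), chr4:24897833-24898082 (plus strand), chr6:50566570-50566819 (minus strand) and chr7:4753095-4753344 (minus strand), each printed 5′ to 3′ in the direction of its gene. For Cycs alone of these, the bases just after the window were not found in a GENCODE M21 transcript of the gene. GENCODE M21 begins Cycs at chr6:50566538, so its window lies before the RefSeq start and does not adjoin the GENCODE start.
Atp5e: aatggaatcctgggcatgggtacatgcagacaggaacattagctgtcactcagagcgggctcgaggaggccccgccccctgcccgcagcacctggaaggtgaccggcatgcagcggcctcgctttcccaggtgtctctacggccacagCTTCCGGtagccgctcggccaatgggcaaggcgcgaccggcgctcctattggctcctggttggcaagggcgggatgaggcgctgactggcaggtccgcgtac
Ndufaf4: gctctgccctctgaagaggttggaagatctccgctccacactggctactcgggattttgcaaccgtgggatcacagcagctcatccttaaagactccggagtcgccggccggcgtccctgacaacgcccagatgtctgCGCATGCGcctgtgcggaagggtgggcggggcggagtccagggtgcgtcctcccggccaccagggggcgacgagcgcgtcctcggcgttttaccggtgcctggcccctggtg
Cycs: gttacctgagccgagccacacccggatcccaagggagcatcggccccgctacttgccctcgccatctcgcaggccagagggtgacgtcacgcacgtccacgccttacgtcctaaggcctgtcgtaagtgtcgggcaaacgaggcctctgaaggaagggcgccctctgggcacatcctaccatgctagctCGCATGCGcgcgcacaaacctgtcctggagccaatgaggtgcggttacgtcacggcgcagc
Cox6b2: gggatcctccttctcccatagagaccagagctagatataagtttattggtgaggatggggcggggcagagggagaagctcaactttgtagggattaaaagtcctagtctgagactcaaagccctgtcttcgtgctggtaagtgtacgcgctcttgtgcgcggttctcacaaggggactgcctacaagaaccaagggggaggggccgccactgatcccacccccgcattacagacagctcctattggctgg

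Ndufa6, which fell in both tissues, also holds the NRF1 part in its promoter window, and Ndufv3, which fell as well, holds none of the 3 longer motifs. Cox6a2, Ndufa4l2, Cox4i2 and Cyc1 were among the members not matched.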

How the data were processed

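Each of the 9 deposited files lists 55291 gene symbols with raw read counts. Per the submitters' processing notes, bcl2fastq and STAR were used with the mm10 build, and the sources used here give neither their versions nor the counting tool and its annotation. Per the labels' protocols, libraries were made from total RNA with low-input amplification kits. The deposited counts are marked in a way read here as unstranded, and reads shared by copies of a gene may be lost or split.

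Counts were filtered with filterByExpr (15066 genes, at least 99.9% of each library's reads), scaled with TMM and fitted over all 9 libraries with robust edgeR 4.0.16 quasi-likelihood dispersion in R 4.3.3, each comparison being a contrast. Adjusted p-values are Benjamini-Hochberg over all 15066 genes with a threshold of 0.05, and the SE is that of the log2 change. Members with few reads were left untested by the filter, which a gene can pass through its higher group alone. The members and the lists of other genes were chosen with earlier results of these data known. Named members are the 4 largest rises and falls per comparison at 10 CPM or more, the member with most reads per complex, all isoform sets, Cycs, Cyc1 and the mitochondrially encoded genes. For the other lists, up to 2 genes per direction and comparison are named. Coordinates, transcript lengths and shared windows come from GENCODE M21 (GRCm38) and promoters from RefSeq (GRCm38.p6), and upstream and reference builds are both mm10.

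The fit was tested on simulated counts with known changes. Replicates differed beyond sampling noise (chi-square over degrees of freedom 3.86 or more), so none was counted as a duplicate. Residuals of libraries with the same number correlated at -0.06 to 0.27 and of those with different numbers at -0.24 to 0.14. Between BM and lung the ranges were 0.03 to 0.27 and -0.24 to 0.14. With 3 libraries per group these values cannot settle whether the numbers pair libraries. The labels do not state a pairing, so none was assumed. Alternatives were other scalings and filters, DESeq2 1.42.0, the 6 libraries of a comparison alone, a replicate block, each library left out, glmTreat at 1.5-fold and, added after the data were seen, a correction for transcript length fitted on genes that are not members. Genes without a transcript length were left unchanged by that correction.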

Additional observations from a re-analysis of the deposited data

How the results depend on the processing

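The members called numbered 54 in lung against bone marrow, 74 in bone marrow against culture and 54 in lung against culture. Leaving out each library gave 37 (without lung replicate 1) to 62 (without lung replicate 3), 65 (without culture replicate 2) to 79 (without bone marrow replicate 1) and 38 (without culture replicate 2) to 57 (without bone marrow replicate 2). The replicate block gave 57, 73 and 52, and DESeq2 56, 73 and 54. The block is given although the numbers were not taken to pair libraries. For changes of more than 1.5-fold the counts were 1, 29 and 8, since the test asks for larger changes. The transcript-length correction gave 18 in lung against bone marrow, 16 of them called in the same direction without it, and 71 and 57 against culture. The 18 include Atp5md and Atp5pb and the 71 include Atp5md, which have no transcript length and were left uncorrected. Calls that were higher made up 74.6% in bone marrow against culture with that correction, against 91.9% without it, and 50% in lung against culture at 1.5-fold and 67.4% without lung replicate 3, against 77.8%. Upper-quartile and library size scaling moved the median of all genes in bone marrow against culture to 0.12 and 0.11. On deposited library sizes complex III and complex V in culture summed to 1814 and 6812 CPM, below the spread of the values given. Those sums leave out the TMM factors, which were 0.981, 0.979 and 0.966 in culture replicates 1, 2 and 3. Without length scaling, Cox6a2 was 0.0307% in bone marrow and 2.75% in culture, Ndufa4l2 0.813%, 0.891% and 20.7% and Atp5g2 3.53%, 3.48% and 6.19% in lung, bone marrow and culture, since the isoforms differ in length. No called change of a named member turned its sign under the alternatives run. Over all 102 tested members the length correction turned the sign of 27 changes in lung against bone marrow (1 of them, Ndufs6, called without it), 15 in bone marrow against culture (4 called without it, Atp5h, Cox7c, Ndufb3 and Ndufb5) and 1 in lung against culture, and none of these 5 was called with it. Among named members that were not called, it turned the sign of 16 changes, among them those of Ndufa6 (0.24), Cox6a1 (0.20), Cox6b1 (0.12), Cyc1 (0.06), mt-Nd1 (0.01) and Cycs (-0.05) in lung against bone marrow. Calls of named members were lost in 27 member settings in lung against bone marrow, 12 in bone marrow against culture and 14 in lung against culture, and gained in 13, 16 and 10. Genes under about 1 CPM, such as Cox7a1, and the mitochondrially encoded genes with nuclear copies are limited by their reads.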

Other observations

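The 16S ribosomal RNA of mitochondria, mt-Rnr2, which is no member, was at 904, 986 and 1229 CPM in lung, 1202, 1140 and 1327 CPM in bone marrow and 818, 749 and 824 CPM in culture. It rose in lung against culture (log2 change 0.38 ± 0.11, adjusted p = 0.00789) and in bone marrow against culture (0.62 ± 0.11, adjusted p = 0.000226) and did not pass in lung against bone marrow (-0.23 ± 0.11, adjusted p = 0.123), in the same edgeR fit in which 0 of 8 mitochondrially encoded subunit genes passed. The 12S gene mt-Rnr1 was at 70.8 ± 17.1 CPM in lung, 74.5 ± 4.62 CPM in bone marrow and 84.8 ± 5.95 CPM in culture and was not called. Mitochondrial tRNA genes together were at 7.21 ± 2.09 CPM in lung, 3.52 ± 0.26 CPM in bone marrow and 10.2 ± 1.89 CPM in culture, with bone marrow below both other groups in every library. These genes were chosen after their values were seen.

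Ndufb1-ps, which the symbol rule leaves out, had as many reads as many subunit genes of complex I, at 143, 154 and 176 CPM in lung, 198, 220 and 194 CPM in bone marrow and 241, 196 and 189 CPM in culture. It was lower in lung than in bone marrow (-0.37 ± 0.11, adjusted p = 0.0213) and than in culture (-0.40 ± 0.11, adjusted p = 0.0053), and it was also chosen after its values were seen.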
